A study of Caenorhabditis elegans with 2 samples.

Results

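The endosomal and vesicle trafficking genes of Caenorhabditis elegans described here are the protein-coding genes whose symbols begin with vps-, snx-, rab-, arf-, arl-, syx- or trpp-. The rule took 86 of the 19973 protein-coding genes on the nuclear chromosomes in the Ensembl annotation, with 31 vps, 20 rab, 10 trpp, 9 syx, 7 snx, 6 arl and 3 arf genes. The family was chosen by name after peaks of the transcription factor ZIP-5 had been seen at several of its promoters. Its count of peaks is therefore a description, and no test was made on it.

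Chromatin immunoprecipitation sequencing (ChIP-seq) recovers DNA bound to a chosen protein and reports, as peaks, the regions where its reads gather. It was made here for ZIP-5, a basic leucine zipper transcription factor, in strain OP544 (unc-119(tm4063) III; wgIs544). In this 1 transgenic line the integrated transgene wgIs544 expresses ZIP-5 with a GFP-FLAG tag at its C-terminus, and the labels describe the pull-down as made with an anti-GFP antibody, although the antibody field reads zip-5. Whole hermaphrodite late embryos were taken 4 hours after synchronization by egg bleaching, and their chromatin was sonicated. There were 2 biological replicates of this 1 group, so nothing was compared between groups. An immunoprecipitation from worms without the tag was not used here. In whole embryos, binding in few cells and weak binding in many cells cannot be told apart.

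Cells move membrane proteins between compartments in vesicles. Proteins taken up at the surface reach early endosomes, from which retromer and sorting nexins return some of them, while the endosomal sorting complexes required for transport (ESCRT) bud others into the lumen of the endosome for degradation in the lysosome. Rab, Arf and Arl GTPases mark the compartments, tethering complexes such as HOPS, CORVET, GARP, EARP and TRAPP hold arriving vesicles, and syntaxins take part in the fusion itself. In the worm these steps serve yolk uptake, the clearance of dying cells and of maternal material, and the secretion of Wnt signals.

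Of the 86 genes, 10 held the summit of an optimal peak in their promoter window, and they were snx-13, vps-51, rab-7, vps-20, snx-3, arf-6, vps-24, vps-39, vps-33.1 and vps-37. The optimal set is the authors' final peak list, derived from the agreement of both replicates. The window covered the 1000 bp before the outermost annotated start of a gene and the 200 bp after it. That is 11.6% of the trafficking genes, beside 3.32% of all protein-coding genes (664 of 19973), and this excess was among the values that chose the family. The bound regions below are shown as the reference reads, on the strand of the trafficking gene and 5′ to 3′, with the summit at the middle base of 201. Coordinates are those of ce11, the UCSC name of the WBcel235 assembly, from whose RefSeq copy the letters were read.

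The first pair are the strongest regions among those shown, and the last is the weakest optimal region of the family. For arf-6 the capitals mark GGGCGG, the core of the GC box. The vps-24 line is a 30-base stretch around its annotated start, with capitals marking TGGCCTAG, the reverse complement of CTAGGCCA, the 8-base word whose share of other promoter peaks exceeded its share of flanking sequence by the most percentage points.
snx-13, chrIV:17087477-17087677, minus strand: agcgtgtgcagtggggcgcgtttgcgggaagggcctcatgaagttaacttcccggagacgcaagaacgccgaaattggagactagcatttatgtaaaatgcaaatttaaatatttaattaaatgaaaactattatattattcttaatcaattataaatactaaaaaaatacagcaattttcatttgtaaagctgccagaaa
rab-7, chrII:11967654-11967854, minus strand: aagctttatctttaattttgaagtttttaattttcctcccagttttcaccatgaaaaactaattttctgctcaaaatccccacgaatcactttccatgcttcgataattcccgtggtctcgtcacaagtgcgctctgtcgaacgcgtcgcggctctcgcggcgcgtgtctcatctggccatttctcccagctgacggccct
arf-6, chrIV:16946826-16947026, plus strand: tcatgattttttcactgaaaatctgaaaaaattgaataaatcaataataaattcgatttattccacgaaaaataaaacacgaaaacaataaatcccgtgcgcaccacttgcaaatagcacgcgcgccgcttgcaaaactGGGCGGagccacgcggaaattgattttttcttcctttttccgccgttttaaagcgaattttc
vps-24, chrII:4993991-4994020, plus strand: ttcctagtccaTGGCCTAGaaaactccatt
vps-37, chrV:5592388-5592588, plus strand: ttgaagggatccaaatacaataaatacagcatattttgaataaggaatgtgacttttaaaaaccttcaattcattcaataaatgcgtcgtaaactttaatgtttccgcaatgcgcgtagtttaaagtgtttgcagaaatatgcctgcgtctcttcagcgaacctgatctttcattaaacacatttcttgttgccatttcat

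On the nuclear chromosomes there were 730 optimal peaks, whose signal values had a median of 159.1 and a range of 95.24 to 2499. The signal value is the authors' score of each peak and has no stated scale, so it is used only to rank or describe peaks within 1 list. The percentile of a peak is the share of its list that it exceeds. The replicate 1 list held 6231 entries, the replicate 2 list 6929 and the list called on both alignments together, here the pooled list, 4362. These 3 lists are relaxed and hold background as well as peaks, and no read counts accompany them, so the depth is unknown.

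The 10 trafficking peaks ran through the whole range of the optimal set. Their signal values had a median of 150.1 and ranged from 97.99 (vps-37) to 934.9 (snx-13), and their median percentile was 45.06. The other 447 promoter peaks had a median of 167.9, a range of 95.24 to 2499 and a median percentile of 55.14. When the 730 peaks were ranked, 2 trafficking peaks were among the strongest 10 and 3 among the strongest 30. Cut into equal parts by rank, the strongest, middle and weakest parts held 4, 2 and 4 of them.

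**Figure D1:**
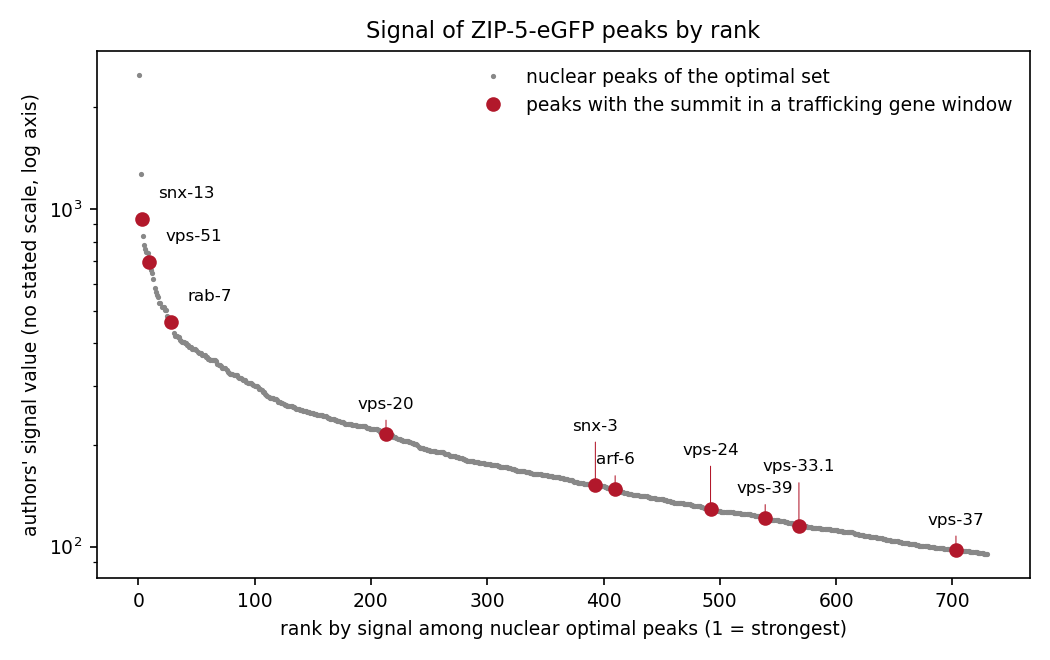
Signal value (log axis, the authors' score) against rank for the 730 nuclear optimal peaks, with the 10 trafficking peaks marked and named. snx-13, vps-51 and rab-7 lie at ranks 3, 9 and 28, and the other 7 lie between ranks 213 and 703.

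The sorting nexins, proteins that bind phosphoinositide on endosomes, held the strongest peak of the family and a middling one. That is 2 of 7 genes, beside 3.32% of all protein-coding genes. The snx-13 peak (chrIV:17087328-17087777, WBGene00013803) had a signal value of 934.9, rank 3 of 730. Its entries had signal values of 495.4 in replicate 1 and 444.0 in replicate 2, rank 3 in each list. Both libraries thus placed it near the top. Its summit lay 139 bp upstream of snx-13 and 472 bp upstream of snr-1, a gene for a spliceosomal Sm protein that is read in the other direction.

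SNX-3 works with retromer in the worm to return the Wnt carrier MIG-14 from endosomes. The snx-3 peak (chrI:9064626-9065069) had a signal value of 152.4 and rank 393, with entries of 78.16 in replicate 1 and 71.25 in replicate 2. Its summit lay 445 bp upstream of snx-3 and nearer, at 231 bp, to the start of rad-54.L, a homologue of a DNA repair ATPase. The remaining 5 sorting nexins held no optimal summit. Of these, snx-1, a homologue of a retromer-associated nexin, had an entry of 26.37 in replicate 1 and 49.11 in the pooled list, and snx-6, snx-14, snx-17 and snx-27 had none. The body of snx-17 held an optimal summit 993 bp downstream of its start (signal value 163.7), within 100 bp of a tRNA gene. No other family member held an optimal summit in its body outside the window.

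The tethering complexes GARP and EARP hold vesicles that return from endosomes, GARP at the Golgi and EARP at recycling endosomes, and share most subunits. VPS-51 is in both, and its peak (chrI:5807258-5807666) had a signal value of 696.2, rank 9, with 355.4 in replicate 1 (rank 10) and 340.6 in replicate 2 (rank 8). The summit lay 153 bp upstream of vps-51 and 265 bp upstream of lin-35, the worm homologue of the retinoblastoma protein. The EARP subunit gene vps-50 stood just outside the optimal set, with 91.33 in the pooled list (rank 777), 41.72 in replicate 1 and 52.8 in replicate 2, and its summit was shared with cey-4. The gene of the shared subunit VPS-52 had low entries in both replicates, 26.09 and 26.72, and none in the pooled list. vps-53 and vps-54 had no entry in any list. Both high and absent values therefore occurred among the 5 subunits. Of their 5 genes 1 held an optimal peak, beside 3.32% of all protein-coding genes.

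ESCRT, which sorts ubiquitinated membrane proteins into vesicles inside the endosome, held 3 of the 10 optimal peaks among its 11 vps-named genes. ESCRT genes of other names fall outside the family and are not in these counts. By subcomplex, 1 of 2 ESCRT-I genes, 0 of 3 ESCRT-II genes and 2 of 6 ESCRT-III genes (counting the ATPase gene vps-4) of the family held one. The share over all protein-coding genes was 3.32%. All 6 of these ESCRT-III genes had a pooled entry, beside 10.8% of all protein-coding genes, and 5 had an entry in both replicates, beside 7.36%.

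The ESCRT-III subunit gene vps-20 had a peak (chrI:636584-637027) of signal value 215.9, rank 213, with 103.4 in replicate 1 and 112.0 in replicate 2. The summit lay 2 bp past the annotated start, inside the vps-20 exon, and 461 bp upstream of eif-4A3, a helicase of the exon junction complex. The peak of vps-24, which encodes another ESCRT-III subunit (chrII:4993767-4994210), had a signal value of 129.3, rank 492, with 66.73 in replicate 1 and 60.06 in replicate 2. Its summit lay 9 bp upstream of vps-24 and in the windows of eif-1, a translation initiation factor gene, and of pigb-1. These were the only summits of the 10 within 100 bp of the member's own start.

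The ESCRT-I gene vps-37 had the weakest optimal peak of the family (chrV:5592266-5592709), with a signal value of 97.99 and rank 703. It had 38.25 in replicate 1 (rank 1152) and 58.27 in replicate 2 (rank 619), so the libraries placed it differently. Its summit lay 212 bp upstream, and no other protein-coding gene shared it.

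Other ESCRT genes had entries below the optimal set. The pooled entry of vps-4, the gene of the ATPase that takes ESCRT-III apart, was 83.26 (rank 912), with 45.49 in replicate 1 and 37.58 in replicate 2. The pooled entry of vps-60 was 68.55 (29.77 and 40.2 in the replicates) and that of vps-32.1, which encodes the main filament subunit, was 63.87 (27.43 and 28.72). The ESCRT-I gene vps-28 had 58.65 pooled, with 28.3 and 30.3. Each of these 4 was thus found in both libraries at a signal below the optimal set. The vps-32.1 summit lay 824 bp upstream of vps-32.1 but 229 bp upstream of icd-1, and the vps-25 summit described next lay 300 bp upstream of vps-25 but 13 bp upstream of uba-2. The ESCRT-II gene vps-25 had 61.33 pooled and 38.71 in replicate 1 only, vps-2 had 49.7 pooled and 28.55 in replicate 2 only, and vps-22 and vps-36 had no entry.

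HOPS and CORVET tether late and early endosomes before fusion. Of their 8 genes in the family 2 held an optimal peak, beside 3.32% of all protein-coding genes. The peak of the HOPS subunit gene vps-39 (chrV:14038464-14038907) had a signal value of 121.4, rank 539, with 56.81 in replicate 1 and 64.27 in replicate 2. Its summit lay 308 bp upstream and was shared with no gene. The replicate 2 list had a second entry in the window, of 56.48, and its stronger entry lay on the other side of the optimal summit from that of replicate 1, 193 bp away. That was the largest distance between replicate summits among the 10.

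VPS-33.1, the Sec1/Munc18 subunit that guides fusion, had a peak (chrIII:8700555-8700998) of 115.5, rank 568, with 47.85 in replicate 1 (rank 754) and 62.37 in replicate 2 (rank 558). The summit lay 150 bp upstream of vps-33.1 and 438 bp upstream of sdz-1. The core subunit gene vps-18 was the only member with a pooled entry (50.25, 35 bp upstream) and none in either replicate list. vps-41 had entries in replicate 1 only, the stronger of 30.9, and vps-8, vps-11, vps-16 and vps-33.2 had none.

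Among the 20 Rab genes, which encode GTPases that give compartments their identity, rab-7 alone held an optimal peak. That is 1 of 20, beside 3.32% of all protein-coding genes. RAB-7 acts on late endosomes, lysosomes and maturing phagosomes. Its peak (chrII:11967634-11967865) had a signal value of 463.9, rank 28, with 248.3 in replicate 1 (rank 25) and 220.2 in replicate 2 (rank 29). The libraries placed it alike, but the summit lay far from the start, 823 bp upstream of rab-7. It was nearer to W03C9.5, at 210 bp, a gene read in the same direction that runs over the annotated start of rab-7, and it was also 883 bp upstream of mex-1, which encodes an RNA-binding protein of early embryonic fate.

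A further 6 Rab genes had entries in both replicate lists and none in the optimal set. rab-18, of a Rab linked to lipid droplets and the endoplasmic reticulum, had 81.12 in the pooled list at 162 bp past its start, with 28.36 in replicate 1 and 54.64 in replicate 2, and its entry was shared with par-2 and kbp-4. rab-1, of the endoplasmic reticulum to Golgi step, had 76.88 pooled, 44.19 in replicate 1 (rank 843) and 25.99 in replicate 2 (rank 6415). rab-18 thus ranked higher in replicate 2 and rab-1 in replicate 1. rab-28, a ciliary Rab in the worm, had 76.45 pooled, with 34.32 and 42.02 in replicates 1 and 2. rab-5, of early endosomes, had 63.81 (30.11 and 32.56) at 902 bp upstream, and rab-39 had 62.24 (32.13 and 26.83). rab-11.1, of recycling endosomes, had 56.06 pooled at 653 bp upstream. Some of these summits lay nearer to another start, that of rab-1 to C39F7.5 (233 bp against 551 bp), that of rab-5 to nmat-2 (696 bp) and that of rab-11.1 to rpl-7 (328 bp). The rab-39 entry was shared with egli-1, at 900 bp. rab-14 had an entry in replicate 2 only and rab-35 in replicate 1 only, and the other 11, among them rab-3, rab-6.1, rab-8 and rab-10, had none in any list.

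The Arf gene arf-6, of a GTPase that acts at the plasma membrane and recycling endosomes, had a peak (chrIV:16946704-16947147) of 147.8, rank 410, with 71.68 in replicate 1 and 80.6 in replicate 2. Its summit lay 194 bp upstream of arf-6 and nearer, at 126 bp, to the start of Y116A8C.9. arf-1 and arf-5 had no entry, nor had any of the 6 Arl genes (arl-1, arl-3, arl-5, arl-6, arl-8 and arl-13). The 3 Arf genes thus held 1 peak of middle rank, and the Arl genes held nothing in any of the 4 lists. These counts are too small to set either group apart from the 3.32% of all protein-coding genes with an optimal summit.

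No family member of retromer, the class III PI 3-kinase, the syntaxins or TRAPP held an optimal summit. At the 3.32% share of all protein-coding genes, groups this small would often hold none. Of the 3 retromer genes, vps-35 had 56.24 pooled and 31.47 in replicate 1, vps-26 had 32.9 in replicate 2 only and vps-29 had none. The kinase genes vps-15 and vps-34, whose product makes the lipid that endosomal proteins bind, had none. Of 9 syntaxins, which drive membrane fusion, syx-3 alone had entries in both replicates (25.02 and 30.47), syx-17 had 1 in replicate 1, and 7 had none. Of 10 subunits of TRAPP, a tether and Rab activator, trpp-9 alone had entries in both replicates (29.71 and 28.91). trpp-4, trpp-5, trpp-6 and trpp-12 had entries in 1 replicate and 5 subunits had none. Of the other Vps genes, the Sec1/Munc18 gene vps-45 had 27.86 in replicate 2 only, and the lipid transfer gene vps-13 had none.

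The edge of the optimal set cut through the family. The 3 members just inside it were vps-37 (97.99), vps-33.1 (115.5) and vps-39 (121.4), and the 3 just outside by pooled signal were vps-50 (91.33), vps-4 (83.26) and rab-18 (81.12), against 95.24 for the lowest nuclear optimal peak.

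Over the relaxed lists, 31 of the 86 members had a summit in the window in the pooled list, beside 10.8% of all protein-coding genes. Replicate 1 held 31 members (beside 12.6% of all genes), and replicate 2 also 31 (beside 13.6%). In both replicate lists there were 24 members (27.9%), beside 7.36% of all genes. The replicates gave the same count and overlapped in 24 genes. These shares come from the lists that yielded the optimal set and are no separate evidence. In all, 10 members were optimal, 13 were in both replicate lists and the pooled list only, 1 in both replicate lists alone, 7 in 1 replicate and the pooled list, 7 in 1 replicate alone and 1 in the pooled list alone. The remaining 47 had no entry.

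**Figure D2:**
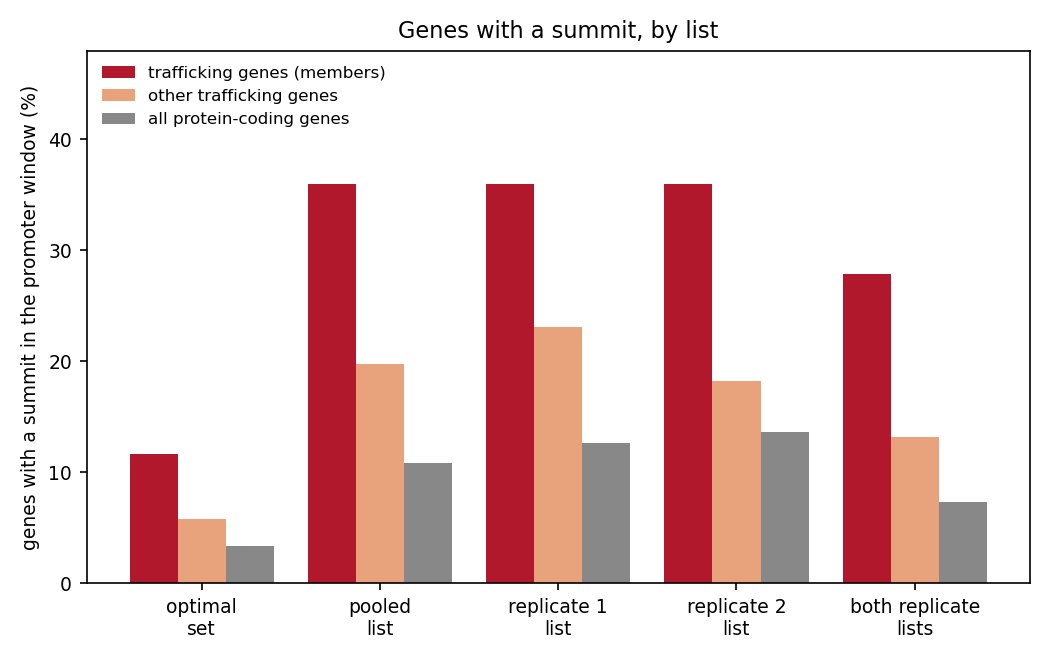
Percent of genes with a summit in the promoter window in each list, for the 86 trafficking genes, 121 other trafficking genes and all 19973 protein-coding genes. Bars start at 0 and carry no error because each set of genes was counted whole, and those of the 86 genes are higher than those of all genes in every list, with 11.6% beside 3.32% in the optimal set.

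The optimal members ranked high in both libraries. Among the 24 members in both lists, the percentile was higher in replicate 1 for 10 and in replicate 2 for 14. The strongest summits of both libraries lay within 50 bp of each other for 16 of the 24, and for 7 of the 10 optimal members. In both lists, 8 of the 10 optimal members and no other member of the family were among the top 10%, the exceptions being vps-33.1 and vps-37. The optimal set was itself built from such agreement. No counts over all genes in both lists are set beside these, so they do not set the family apart.

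**Figure D3:**
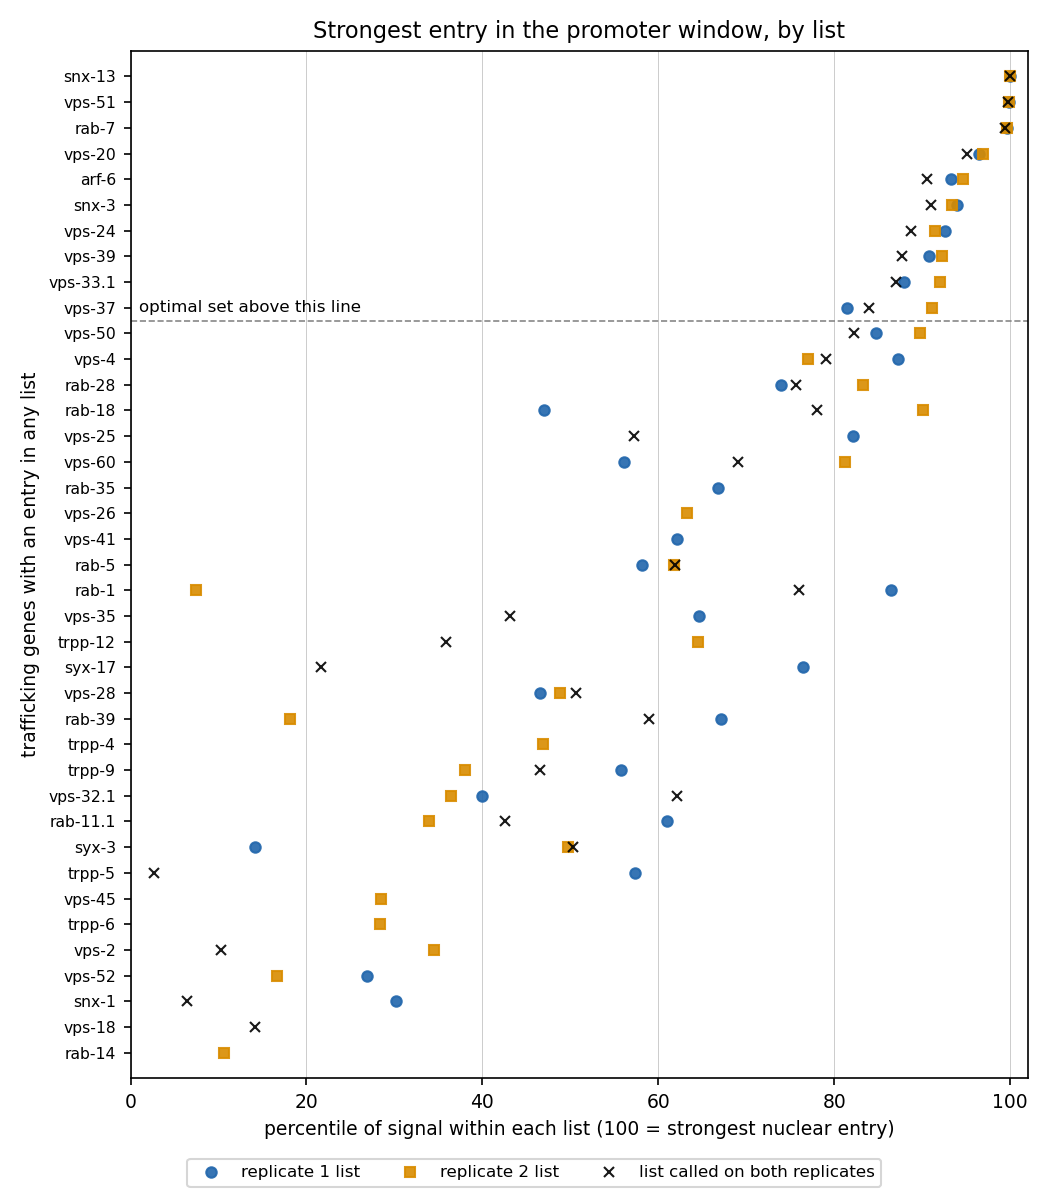
Percentile of each member's strongest entry within the replicate 1, replicate 2 and pooled lists, for the 39 members with any entry, the 10 optimal members above the dashed line. The optimal members lie between 81.5 and 100 in the replicate lists, while rab-1 lies at 86.5 in replicate 1 and 7.42 in replicate 2.

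Most of the trafficking peaks lay in the window of more than 1 gene. Another protein-coding gene's window held the summit at 8 of the 10 (80.0%), beside 210 of the 447 other promoter peaks (47.0%). A summit in several windows has more chances to fall in that of a trafficking gene. The counting rule itself thus raises the first share, and the difference was not tested. The member's start was the nearest start at 7 of the 10, the exceptions being rab-7, snx-3 and arf-6. ChIP-seq does not say which gene of a pair a bound region serves. None of the 10 summits lay within 100 bp of a tRNA or snoRNA gene.

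**Figure D4:**
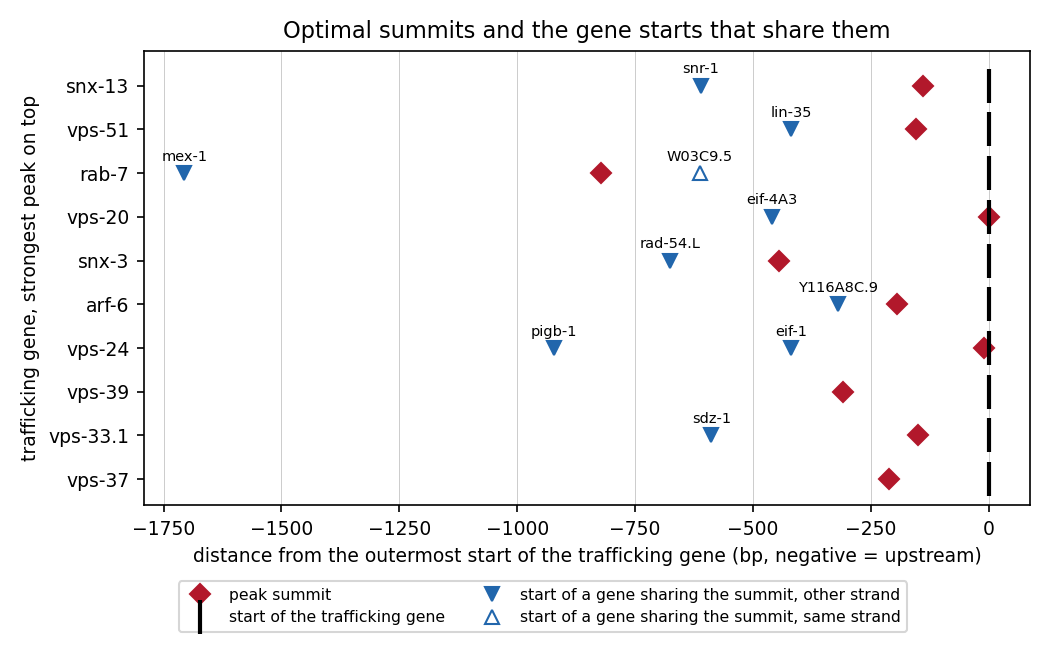
Position of the optimal summit relative to the annotated start of each of the 10 members (bp, negative upstream) and to the starts of the genes that share it. The member's start is the nearest for 7, and the rab-7 summit lies farthest from its member, at 823 bp upstream.

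A gene was called head-to-head when the start of a gene on the opposite strand lay within 1000 bp upstream. That held for 23 of the 86 trafficking genes (26.7%) and for 3539 of all genes (17.7%), with median gaps of 489 bp and 476 bp. Of the 10 members with an optimal summit 7 were head-to-head (70.0%), beside 354 of all 664 genes with an optimal summit (53.3%). Of the 76 members without one 16 were head-to-head (21.1%). Of the head-to-head members 7 of 23 (30.4%) held an optimal summit, beside 10% of all head-to-head genes. Of the other members 3 of 63 (4.76%) did, beside 1.89% of all such genes. These 3 were rab-7, vps-39 and vps-37. A summit between head-to-head genes is counted for both, which raises their share by the counting rule itself.

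Members that closely follow a gene on the same strand held a smaller share of peaks. In the worm such genes can belong to an operon, transcribed from a promoter farther upstream, but the annotation used does not mark operons. A same-strand gene ended within 500 bp upstream of the start, or ran over it, for 32 members (37.2%) and for 4030 of all genes (20.2%). Of these members 1 (3.12%, rab-7) held an optimal summit, beside 2.36% of all such genes. Of the remaining members 9 of 54 (16.7%) did, beside 3.57% of all other genes. In both replicate lists the counts were 4 of 32 members (12.5%, beside 5.76% of all such genes) and 20 of 54 (beside 7.77%). All head-to-head members but rab-21 were among these 54, and they held 7 of the 9 optimal summits there. vps-39 and vps-37 held the others. The contrast in optimal summits between the same-strand classes is therefore not separate from that between the head-to-head classes. Of the 47 members with no entry, 22 had a same-strand gene close upstream or over the start and 7 were head-to-head. Of the 39 members with any entry the counts were 10 and 16. No such counts over all genes are set beside these, so they do not set the family apart. Over all genes, 17.9% of those head-to-head and 5.09% of the others had a summit in both replicate lists. The classes of arrangement were chosen after the peaks had been seen.

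**Figure D5:**
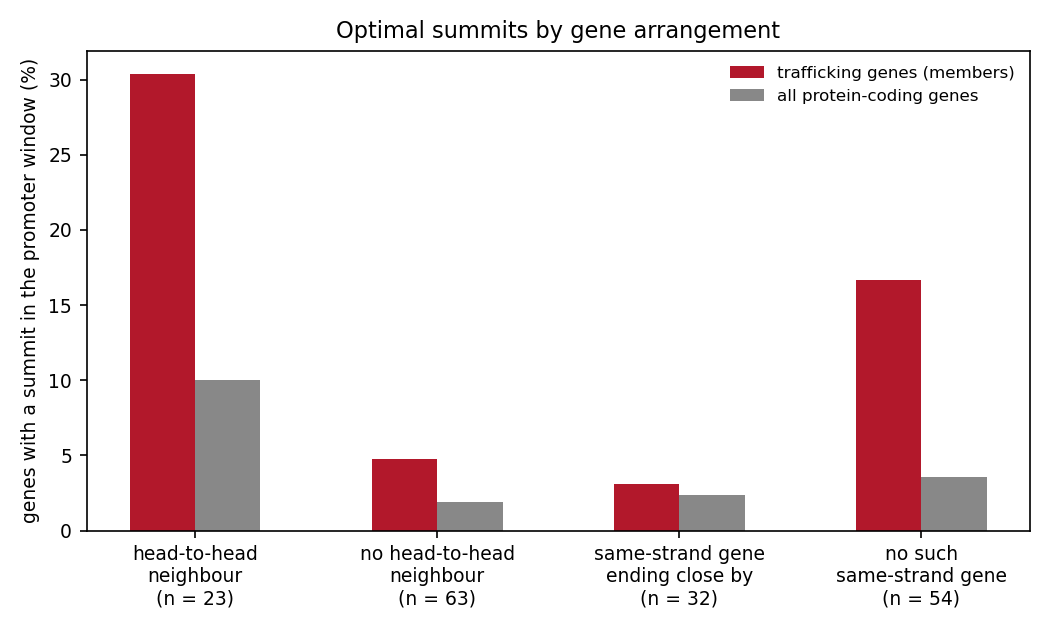
Percent of genes with an optimal summit by the arrangement of their upstream neighbour, for trafficking genes and all protein-coding genes. Trafficking genes lie at 30.4% when head-to-head and 3.12% when a same-strand gene is close upstream, beside 10% and 2.36% of all genes.

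The members without an optimal peak were mostly far from one. No distances over all genes are set beside the values below, so they describe the members only and do not set them apart. For these 76 genes the nearest optimal summit lay a median of 42320 bp from the start (993 to 265657 bp), with 2 within 2000 bp and 6 within 5000 bp. For the 31 members in the pooled list, the strongest entry lay within 250 bp of the start for 17 and downstream of it for 3, with a median of 194 bp upstream. Of the 21 members with a pooled entry and no optimal one, 7 had a summit nearer to another protein-coding start (rab-1, vps-32.1, rab-5, vps-25, rab-11.1, vps-2 and trpp-5).

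The bound regions of the family were searched for the leading word of the other promoter peaks and for 3 known sites, and no search was made for words the members share. The 201 bp around the 10 summits had a median GC content of 36.3% (31.8% to 47.3%), against 39.3% at the other promoter peaks. CTAGGCCA, read on both strands, was the 8-base word with the largest difference in share between summit windows and flanks at the 447 promoter peaks of no member, where 77 windows (17.2%) and 4 of 894 flanks (0.447%) held it. Among the 10 trafficking peaks 2 held it, vps-20 and vps-24, both ESCRT-III genes with the summit at the start. In the vps-24 stretch shown above it lies 4 to 11 bp past the annotated start, upstream of the coding start. Over promoter windows, 4 of the 86 members (4.65%) and 3.48% of all genes held the word, the others being rab-5 and trpp-10.

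The GC box core GGGCGG, on both strands, was at 2 of the 10 peaks, snx-3 and arf-6, and at 58 of the 447 other promoter peaks (13.0%). Windows of the same length centred 500 bp to either side of the promoter summits held it in 23 of 914 cases (2.52%). Whole promoter windows, which are longer than the summit windows, held it in 19.2% of all genes. The C/EBP-type site TTGCGCAA was at 0 of the 10 and 11 of the 447 (2.46%), in 2 of the 914 flanks (0.219%) and in 1.97% of whole promoter windows. The cyclic AMP response element TGACGTCA was at 0 of the 10 and 4 of the 447 (0.895%), in 7 of the 914 flanks (0.766%) and in 5.89% of whole promoter windows. Each of these is a match of letters within 100 bp of a summit or in a window, and a region without a match may hold a site of another form. The snx-13 and rab-7 regions, the strongest shown above, held none of the 4 words.

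Trafficking genes with other names were counted in the same way. The list of 121 such genes included endocytic, ESCRT, exocyst, Golgi tether and fusion genes and regulators of Rab and Arf GTPases. Of these 121, 7 (5.79%) held an optimal summit, beside 3.32% of all protein-coding genes. A summit in both replicate lists was found for 16 (13.2%), beside 7.36%. The highest was nsf-1, the ATPase that recycles fusion proteins, with a signal value of 390.0 (rank 45). It was followed by the exocyst gene sec-15 (255.8, summit within 100 bp of a tRNA gene), sorf-1, which encodes a regulator of endosomal phosphoinositide (172.0), and the exocyst gene exoc-7 (167.2). The endocytic adaptor genes ehs-1 (120.1) and epn-1 (110.4) and the Golgi tether gene cogc-2 (112.4) were lower. The summits of nsf-1, sec-15, exoc-7 and cogc-2 were shared with adr-1, C28G1.2, tufm-2 and klp-18 in turn. That of sec-15 lay nearer to the start of C28G1.2. The difference between both sets of genes was not tested.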

How the data were processed

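ZIP-5-eGFP ChIP-seq peak lists of 2 biological replicates (1 group) were analysed in ce11. Per the listings of files in the deposited descriptions, the authors called a list on each replicate with a control and 1 on both alignments together, and derived the optimal set from the irreproducible discovery rate. Which aligner, caller, IDR threshold and depth were used is not given in the sources used here. Control libraries and the ce10 lists were not used. The deposited signal value is the authors' score per peak and was ranked within lists only. From the files, summits on nuclear chromosomes were placed in promoter windows of the Ensembl release 115 annotation (1000 bp before to 200 bp after the outermost start), and 1 summit could count for several genes. Trans-splicing, common in nematodes, can hide where transcription begins, so starts are those of the annotation. Of 31853 coding transcripts 99.8% began with ATG in the reference, and 0 entries passed a chromosome end. Of the columns used, 0 belonged to no sample.

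Named were all members with an optimal summit, the 10 strongest others found in both replicates, 3 members on each side of the threshold, sharing neighbours, members in the pooled list alone, and members without entries by complex. Of 124 other trafficking genes listed, 121 matched the annotation (not cogc-7, tbc-4 or tbc-15). The members and lists were chosen with earlier results of these data known, so shares over all genes stand in for tests, and no interval is given because genes were counted whole. Roles come from general knowledge, and complexes were assigned by hand. Counting was tested on simulated data. Python 3.11.15, pandas 2.3.3, numpy 2.4.6 and matplotlib 3.10.9 were used. Alternatives covered the window, the nearest start, overlap, the stronger 50% of peaks, peaks near RNA genes, the word's window and each replicate alone.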

Additional observations from a re-analysis of the deposited data

How the results depend on the processing

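The count of 10 members with an optimal summit stood beside 3.32% of all protein-coding genes. It was 9 with a window of 500 bp upstream (beside 2.67%) and 11 with 2000 bp (4.17%). With the nearest start only it was 7 (2.2%), by overlap 10 (3.6%) and without peaks near RNA genes 10 (3.11%). In the stronger 50% of the lists, 4 members remained, beside 1.87% of all genes. Their median percentile was 95.2, 1 peak held the word, and 15 members (of 24) were in both replicate lists, beside 5.3%. With 1 replicate left out, as many of the strongest entries of the other list were taken. The count was then 8 without replicate 2 (beside 3.31%) and 12 without replicate 1 (beside 3.27%). The median percentile ran from 27.3 to 59.3, and 2 peaks held the word in each case. Without replicate 2, vps-33.1 and vps-37 were lost. Without replicate 1, rab-18 and vps-50 were gained. A single replicate list held 31 members either way. snx-13, vps-51 and vps-20 were kept under all 8 of these settings, while rab-7 was lost with the narrower window and with the nearest start, and arf-6 and snx-3 with the nearest start and the stronger 50%. If genes that run over the start are left out of the close same-strand class, an alternative chosen after seeing the data, 0 of 28 members in it held an optimal summit, beside 2.36% of all such genes. No paired analysis was possible because there is 1 group. With 2 libraries and no read counts, entries near the edge of a list limit every count below the optimal set.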
